A study of Homo sapiens with 12 samples.

Results

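The genes described here are 10 members of the unfolded protein response (UPR) of the endoplasmic reticulum (ER): HSPA5, HSP90B1, SDF2L1, DNAJC3, DNAJB9, EDEM1, HERPUD1, ERN1, ATF6 and XBP1. They were taken by gene symbol, and they are 10 of 58735 genes in the count table. All 10 had enough counts to be among the 16891 genes tested.

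The ER folds secreted and membrane proteins, and the UPR adjusts its folding capacity. ERN1 (IRE1), ATF6 and EIF2AK3 (PERK) sense unfolded proteins in the ER: IRE1 splices XBP1 mRNA, ATF6 is cleaved to a transcription factor, and PERK slows translation while ATF4 is made. The target genes encode chaperones such as HSPA5 (BiP), their J-domain partners, and factors that return misfolded proteins to the cytosol for degradation.

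RNA-seq was carried out on FDX2-iKO ES2 cells. ES2 is a line from a human ovarian cancer, and in these cells the endogenous FDX2 gene was knocked out by genome editing while an editing-resistant FDX2-HA is driven by doxycycline (Doxy) through the TetON system. FDX2 is a mitochondrial ferredoxin used in iron-sulfur cluster synthesis, so Doxy keeps FDX2 present and its withdrawal removes it. The 4 conditions were 6 days at 20% O2 with Doxy (+ Doxy) or without (wo Doxy), and 4 days at 20% O2 followed by 3 days at 3% O2, again with or without Doxy. Each condition had 3 biological replicates, 12 libraries in all. The knockout cells are clones, and per the study's methods results are from clone 1 unless stated otherwise. Because Doxy itself differs between the groups, its own effect and that of FDX2 cannot be told apart in these libraries. Cells at 3% O2 were also cultured for 1 day longer than the others, so oxygen and total time cannot be told apart.

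Libraries held 24958386 to 34313637 counts on genes (median 29621780). FDX2 had 5, 2 and 6 counts at 20% O2 with Doxy and 9, 13 and 4 without, and 2, 4 and 12 counts at 3% O2 with Doxy and 7, 7 and 5 without. The groups overlapped at both oxygen levels, with no excess in the libraries with Doxy, and the counts are too low to check the loss of FDX2 or the presence of FDX2-HA. All 3 mesenchymal markers looked up were detected and their summed level was 2980 to 5036 CPM (counts scaled to a common library total, with TMM factors). Of 5 epithelial markers 3 were tested, while EPCAM and CDH1 were at 0.119 CPM or less, and of 3 ovarian tumour markers PAX8 alone was tested. At 20% O2 the mesenchymal sum was 3510 to 4022 CPM with Doxy and 2980 to 3096 CPM without, and the epithelial sum was 1041 to 1409 and 841 to 897 CPM. The part of these shifts in the results was not tested. The 3 leukocyte markers were too low to be tested in any condition, with a summed level of at most 0.322 CPM, whereas the endothelial cadherin CDH5 carried most of an endothelial sum of 22.1 to 51.6 CPM. In 3 libraries counts rose with the GC content of transcripts relative to the other replicates: 20% O2 + Doxy replicate 1, 3% O2 + Doxy replicate 3 and 3% O2 wo Doxy replicate 2, with correlations of 0.804, 0.643 and 0.547 over 10790 genes, against -0.720 to 0.323 in the other 9. Deviations were taken from the condition mean, so a rise in 1 replicate goes with falls in its partners. Replicates 2 and 3 of 20% O2 + Doxy had -0.587 and -0.720, and replicates 1 and 2 of 3% O2 + Doxy had -0.586 and -0.569. Which replicate of a condition is the unusual one cannot be told from these values.

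Per kilobase of exon, HSPA5 and HSP90B1 stood far above the other members. With Doxy at 20% O2, the order of levels in RPKM (CPM per kilobase, mean ± SD, n = 3) was HSPA5 (222 ± 4.89), HSP90B1 (188 ± 11.97), SDF2L1 (24.7 ± 4.96), XBP1 (21.0 ± 0.201), EDEM1 (13.3 ± 0.390), DNAJC3 (10.3 ± 0.872), ATF6 (8.96 ± 0.470), HERPUD1 (7.87 ± 0.240), DNAJB9 (2.61 ± 0.209) and ERN1 (1.71 ± 0.159). SDF2L1 and XBP1 were the only neighbours in that order whose means lay closer than the larger of their SDs. Without Doxy at 20% O2, XBP1 reached 33.9 ± 0.614 RPKM, and SDF2L1 (12.5 ± 0.981), HERPUD1 (12.1 ± 0.0992) and EDEM1 (11.98 ± 0.389) could not be separated from their neighbours by the same measure. Gene counts do not separate spliced from unspliced XBP1 mRNA, and neither cleavage of ATF6 nor activity of IRE1 was measured here.

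Members lie on 9 chromosomes (GRCh38, GENCODE release 29), and the promoters of 5 of them carry the same short elements. RefSeq promoter windows (GRCh38.p14) of 300 bases, 250 before and 50 after each start, were found for all 10 members and searched on both strands. The ER stress response element, ERSE, was searched as CCAAT and CCACG 9 bases apart, and it occurred in 27 of 35116 windows (0.0769%), including those of HSPA5, HSP90B1 and XBP1. ERSE-II, searched as ATTGG and CCACG 1 base apart, occurred in 19 windows (0.0541%), including those of HERPUD1 and SDF2L1. The amino acid response element bound by ATF4, searched as TGATGNAA, occurred in 1270 windows (3.62%) and among members in HERPUD1. The UPR element TGACGTGG occurred in 256 windows (0.729%) and in none of the members' windows. The HSP90B1 stretch lies before its RefSeq start but inside the GENCODE span of the gene, and 6 of its bases are in GENCODE exons. The stretches below are shown because genes that share an element moved in opposite directions after FDX2 loss, as given further on. Capitals mark the letters searched for, and all run 5′ to 3′ on the gene's strand.
HSPA5, ERSE, chr9:125241371-125241429, minus strand: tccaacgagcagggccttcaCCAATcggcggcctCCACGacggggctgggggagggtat
HSP90B1, ERSE on each strand, chr12:103930196-103930339, plus strand: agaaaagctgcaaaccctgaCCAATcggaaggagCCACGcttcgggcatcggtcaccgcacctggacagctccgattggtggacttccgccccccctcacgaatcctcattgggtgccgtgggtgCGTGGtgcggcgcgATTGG
XBP1, ERSE, chr22:28800598-28800641, minus strand: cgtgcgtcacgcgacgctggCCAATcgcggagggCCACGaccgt
HERPUD1, ATF4 element then ERSE-II, chr16:56931946-56932047, plus strand: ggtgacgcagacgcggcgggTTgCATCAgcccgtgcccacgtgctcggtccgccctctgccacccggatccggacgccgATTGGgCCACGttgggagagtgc
SDF2L1, ERSE-II on the opposite strand, chr22:21642094-21642144, plus strand: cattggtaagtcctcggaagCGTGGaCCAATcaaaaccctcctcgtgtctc

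The first comparison asked how these mRNAs change when FDX2 is lost in ambient oxygen. Loss of FDX2 at 20% O2 split the members: 5 rose (ERN1, DNAJB9, XBP1, HERPUD1 and ATF6), 3 fell (SDF2L1, HSP90B1 and HSPA5) and 2 did not pass the test (EDEM1 and DNAJC3). In all tested genes, 17.6% rose and 17.7% fell by the same criterion, an adjusted p under 0.05 in edgeR's quasi-likelihood test. The changes ran from a log2 fold change of -0.98 to 1.09 (median 0.17, where the median of all tested genes was 0.01). The rising side held the sensors ERN1 and ATF6, and XBP1, but also the J-domain protein DNAJB9 and HERPUD1. The falling side held the 2 most abundant chaperones and SDF2L1. The sensor EIF2AK3 (PERK), which is not among the members, had a log2 fold change of -0.02 (adjusted p = 0.845).

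**Figure D1:**
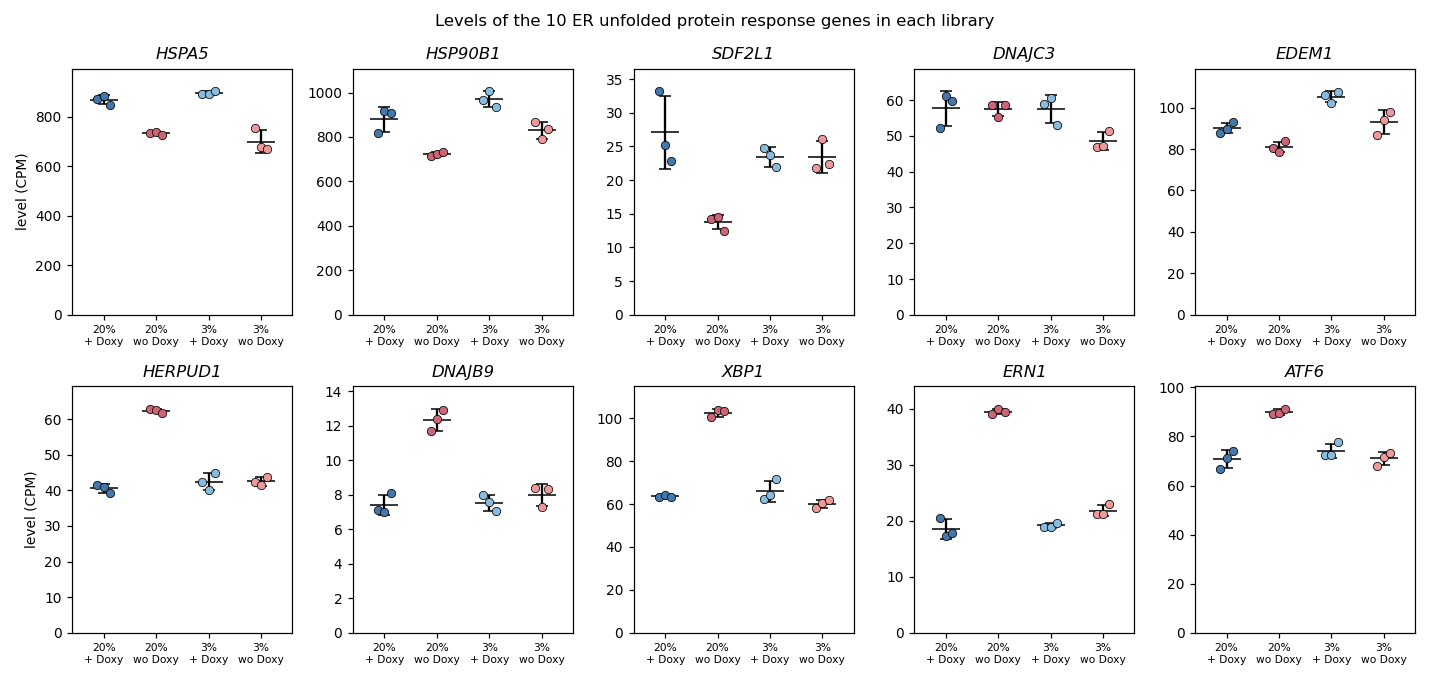
Level of each of the 10 genes in CPM (y axis, from 0) in the 12 libraries, by condition (x axis); points are replicates, and the black bar and whiskers are mean ± SD of 3. In HERPUD1, DNAJB9, XBP1, ERN1 and ATF6 the 3 libraries of 20% O2 wo Doxy stand above the other 9, and in SDF2L1 they stand below them.

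Among chaperones, HSPA5 (ENSG00000044574, chromosome 9, 125234853 to 125241330), the ER Hsp70, had 874, 886 and 849 CPM with Doxy and 736, 738 and 726 CPM without. The groups did not overlap, and HSPA5 fell by 15.6% (log2 fold change -0.25, SE 0.047, adjusted p = 0.00214). HSP90B1 (ENSG00000166598, chromosome 12, 103930107 to 103953645), which encodes the ER Hsp90 GRP94, had 816, 918 and 907 CPM with Doxy and 716, 725 and 731 CPM without. Each library without Doxy was below each library with it, and the fall was 17.8% (log2 fold change -0.28, SE 0.054, adjusted p = 0.00217). SDF2L1 (ENSG00000128228, chromosome 22, 21642261 to 21644298), a partner of ER J-domain chaperones, had 33.2, 25.3 and 22.8 CPM with Doxy and 14.2, 14.5 and 12.5 CPM without. It fell by 49.3%, the largest fall among the members (log2 fold change -0.98, SE 0.131, adjusted p = 0.000197). SDF2L1 transcripts have the highest GC content of the members, 66.2% against 40.6% to 52.8%, and its highest library is one of those named above for its GC trend. Without that library the log2 fold change of SDF2L1 was -0.82 (adjusted p = 0.000181), and with each library's GC trend removed it was -0.64 (adjusted p = 0.00407). The trend was taken against the mean of all libraries, so its removal also takes out differences between conditions that follow GC content.

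The J-domain partners of HSPA5 parted. DNAJB9 (ERdj4, ENSG00000128590, chromosome 7, 108569568 to 108574850), which binds IRE1 and HSPA5, had 7.13, 6.99 and 8.08 CPM with Doxy and 11.7, 12.4 and 12.9 CPM without. The groups did not overlap, and the level rose 1.67-fold (log2 fold change 0.74, SE 0.090, adjusted p = 0.000107). DNAJC3 (p58IPK, ENSG00000102580, chromosome 13, 95677139 to 95794989), which is also known as an inhibitor of PERK, had 52.1, 61.1 and 59.8 CPM with Doxy and 58.6, 55.4 and 58.7 CPM without. These ranges overlapped, and the log2 fold change was -0.0031 with a 95% interval of -0.17 to 0.16 (adjusted p = 0.981).

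Of the genes of ER-associated degradation, HERPUD1 (ENSG00000051108, chromosome 16, 56932048 to 56944863), a membrane protein that organizes the retrotranslocation complex, had 41.6, 40.9 and 39.2 CPM with Doxy and 62.9, 62.5 and 61.9 CPM without. The 2 groups were far apart for their spread, and HERPUD1 rose 1.54-fold (log2 fold change 0.62, SE 0.053, adjusted p = 7.96e-06). EDEM1 (ENSG00000134109, chromosome 3, 5187646 to 5219957), a lectin-like factor that directs misfolded glycoproteins to degradation, had 87.7, 89.8 and 93.0 CPM with Doxy and 80.5, 78.7 and 83.8 CPM without. Although the ranges did not overlap, EDEM1 just missed the threshold, with a log2 fold change of -0.15 (SE 0.056, adjusted p = 0.0510). It passed with DESeq2's Wald test (-0.17, adjusted p = 0.0114) and also when 20% O2 + Doxy replicate 1, 3% O2 + Doxy replicate 3, or 3% O2 wo Doxy replicate 1 or 3 was left out (adjusted p between 0.0318 and 0.0452).

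Both sensors among the members rose. ERN1 (ENSG00000178607, chromosome 17, 64039142 to 64130819), the IRE1 kinase and nuclease, had 20.5, 17.3 and 17.8 CPM with Doxy and 39.0, 40.0 and 39.5 CPM without. Its 2.13-fold rise was the largest among the members (log2 fold change 1.09, SE 0.067, adjusted p = 9.3e-07). ATF6 (ENSG00000118217, chromosome 1, 161766294 to 161964070) had 66.7, 71.4 and 74.0 CPM with Doxy and 89.4, 89.4 and 91.3 CPM without, with no overlap. It rose 1.27-fold (log2 fold change 0.35, SE 0.054, adjusted p = 0.00057). XBP1 (ENSG00000100219, chromosome 22, 28794555 to 28800597), whose spliced mRNA encodes the transcription factor downstream of IRE1, had 63.3, 64.4 and 63.3 CPM with Doxy and 101, 104 and 104 CPM without. XBP1 rose 1.61-fold (log2 fold change 0.69, SE 0.057, adjusted p = 6.37e-06), and the replicates lay within a few CPM of each other. Of near-identical copies, HSPA5P1 had 0 counts and XBP1P1 at most 14 counts, 0.833% of XBP1. DNAJB9, EDEM1 and HSP90B1 share 6.45%, 9.66% and 7.60% of their exon bases with other genes.

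The same comparison at 3% O2 asked how these mRNAs respond to FDX2 loss in low oxygen. In low oxygen none of the 10 members rose and 2 fell, HSPA5 and HSP90B1, where 4.2% of tested genes rose and 3.11% fell. At an unadjusted p under 0.05 there were 6 members, where 23.1% of all tested genes passed, and DESeq2 called 5, all lower, where it called 4.97% of genes higher and 6.54% lower. HSPA5 had 893, 891 and 905 CPM with Doxy and 754, 678 and 670 CPM without. These groups did not overlap, and HSPA5 fell by 21.9% (log2 fold change -0.36, SE 0.047, adjusted p = 0.00151). HSP90B1 had 968, 1007 and 934 CPM with Doxy and 867, 791 and 836 CPM without. Its fall of 14.3% (log2 fold change -0.22, SE 0.054, adjusted p = 0.0320) lost its call when any single replicate of 20% O2 wo Doxy, replicate 1 or 2 of 3% O2 + Doxy, or replicate 2 or 3 of 3% O2 wo Doxy was left out (adjusted p between 0.0615 and 0.154). Fitted to the 6 libraries at 3% O2 alone, neither fall passed the threshold (HSPA5 log2 fold change -0.38, adjusted p = 0.0516; HSP90B1 -0.25, adjusted p = 0.111).

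None of the genes that had risen at 20% O2 passed the test at 3% O2. ERN1 had 18.9, 19.0 and 19.6 CPM with Doxy and 21.2, 21.2 and 22.9 CPM without. These values did not overlap, but the log2 fold change of 0.18 did not pass (SE 0.068, adjusted p = 0.130); with GC trends removed it was 0.19 (adjusted p = 0.0286). XBP1 had 62.3, 64.1 and 71.7 CPM with Doxy and 58.0, 60.3 and 61.9 CPM without, a log2 fold change of -0.14 (SE 0.057, adjusted p = 0.180). The XBP1 groups did not overlap, and DESeq2 called XBP1 lower (-0.16, adjusted p = 0.0492). HERPUD1 had 42.3, 40.1 and 44.9 CPM with Doxy and 42.3, 41.5 and 43.8 CPM without. Its groups overlapped, and the 95% interval of its log2 fold change was -0.11 to 0.12. DNAJB9 had 7.97, 7.56 and 7.05 CPM with Doxy and 8.37, 7.26 and 8.36 CPM without (log2 fold change 0.09, interval -0.11 to 0.29). ATF6 had 72.5, 72.5 and 77.6 CPM with Doxy and 68.0, 71.7 and 73.5 CPM without, which overlapped (log2 fold change -0.06, interval -0.18 to 0.06).

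SDF2L1, which had fallen most at 20% O2, had 24.7, 23.8 and 21.9 CPM with Doxy and 21.8, 26.1 and 22.4 CPM without at 3% O2. The ranges overlapped and the log2 fold change was -0.0031, with a wide interval of -0.29 to 0.28. EDEM1 had 106, 102 and 108 CPM with Doxy and 86.6, 94.1 and 98.1 CPM without (log2 fold change -0.18, SE 0.056, adjusted p = 0.0764). DNAJC3 had 59.0, 60.5 and 53.2 CPM with Doxy and 46.9, 47.3 and 51.5 CPM without (log2 fold change -0.24, SE 0.074, adjusted p = 0.0734). In both genes every library without Doxy was below every library with it, and both were called lower by DESeq2 (adjusted p = 0.00495 for EDEM1 and 0.0186 for DNAJC3). Leaving out 20% O2 + Doxy replicate 1 gave both genes a call (adjusted p = 0.0404 for EDEM1 and 0.0289 for DNAJC3), and leaving out 3% O2 + Doxy replicate 3 gave one to DNAJC3 (0.0349).

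**Figure D2:**
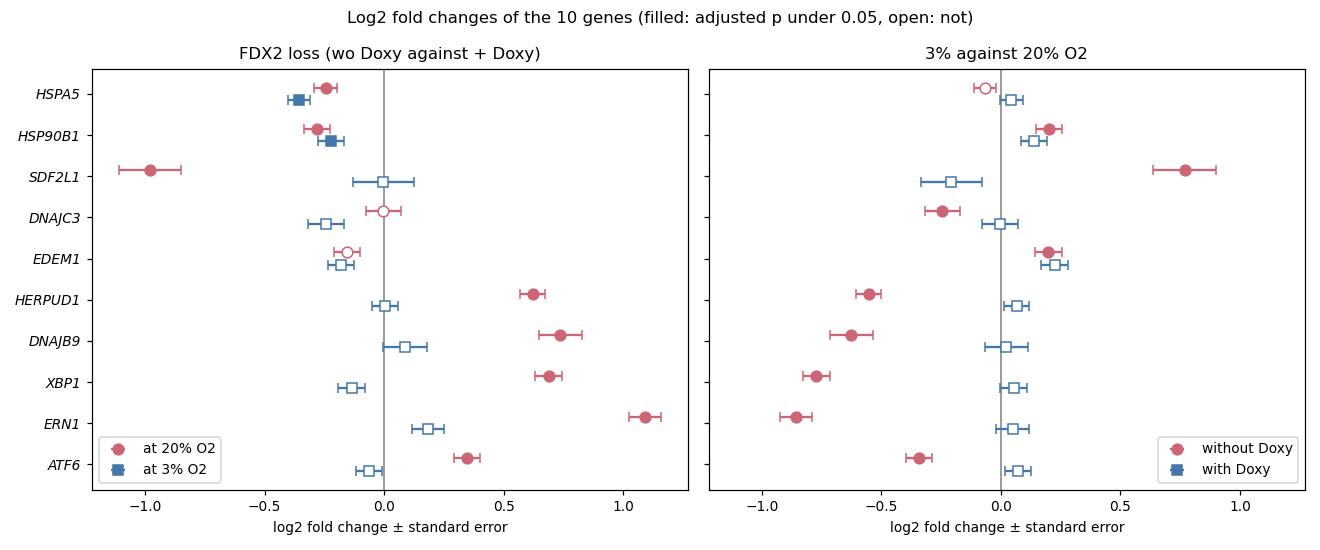
Log2 fold change (x axis) ± standard error of each gene (y axis) on loss of FDX2 at 20% and 3% O2 (left) and at 3% against 20% O2 without and with Doxy (right); filled symbols passed an adjusted p under 0.05. On the left, ERN1, DNAJB9, XBP1, HERPUD1 and ATF6 lie between 0.35 and 1.09 at 20% O2 and between -0.14 and 0.18 at 3% O2, while HSPA5 and HSP90B1 are below 0 at both.

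The dependence of the response on oxygen was tested directly, as the log2 fold change at 3% minus that at 20% O2. The response was lower at 3% O2 for ERN1, XBP1, DNAJB9, HERPUD1 and ATF6, higher for SDF2L1, and did not pass for the other 4, where 3.21% of all tested genes were higher and 4.08% lower. ERN1 differed by -0.91 on the log2 scale (SE 0.095, adjusted p = 0.000531), XBP1 by -0.83 (SE 0.080, adjusted p = 0.000375) and HERPUD1 by -0.62 (SE 0.075, adjusted p = 0.00113). DNAJB9 differed by -0.65 (SE 0.128, adjusted p = 0.0133), which lost its call without 20% O2 wo Doxy replicate 3 (-0.62, adjusted p = 0.0573). ATF6 differed by -0.41 (SE 0.077, adjusted p = 0.0103). SDF2L1 differed by 0.98 (SE 0.184, adjusted p = 0.0104), but by 0.47 with GC trends removed, where it no longer passed (adjusted p = 0.152). That removal also takes out GC-linked differences between conditions, so a technical and a biological part cannot be told apart. For HSPA5 the difference was -0.11 with an interval of -0.26 to 0.04, and for HSP90B1 it was 0.06 with an interval of -0.11 to 0.23. EDEM1 gave -0.03 (interval -0.20 to 0.15) and DNAJC3 -0.24 (interval -0.47 to -0.01, adjusted p = 0.194), which passed with GC trends removed (-0.18, adjusted p = 0.0413). The falls of HSPA5 and HSP90B1 were thus not shown to depend on oxygen.

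The 3% and 20% O2 cultures, which also differ in total time, were compared first in cells kept on Doxy. With Doxy, 0 of the 10 members were called between 3% and 20% O2, where 1.63% of tested genes rose and 0.385% fell. At an unadjusted p under 0.05 there were 2, EDEM1 and HSP90B1, where 13% of all tested genes passed. DESeq2 called 1, EDEM1 (log2 fold change 0.22, adjusted p = 0.0046), where it called 2.44% of genes higher and 1.28% lower. In edgeR's test EDEM1 had a log2 fold change of 0.22 (SE 0.056, adjusted p = 0.0733), and all 3 libraries at 3% O2 (102 to 108 CPM) were above those at 20% O2 (87.7 to 93.0 CPM). HSP90B1 had 0.14 (SE 0.054, adjusted p = 0.287), and with GC trends removed it was called at 0.19 (adjusted p = 0.00493). The other 8 members lay between -0.21 and 0.07, HSPA5 at 0.04 with an interval of -0.06 to 0.15.

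Without Doxy, 9 of the 10 members differed between the same cultures. SDF2L1, EDEM1 and HSP90B1 were higher at 3% than at 20% O2, and ERN1, XBP1, DNAJB9, HERPUD1, ATF6 and DNAJC3 were lower. Of all tested genes 13.9% rose and 11.9% fell. ERN1 fell by 44.8% (log2 fold change -0.86, SE 0.067, adjusted p = 1.62e-05), XBP1 fell by 41.5% (-0.77, SE 0.057, adjusted p = 1.07e-05), DNAJB9 fell by 35.2% (-0.63, SE 0.090, adjusted p = 0.000729), HERPUD1 fell by 31.8% (-0.55, SE 0.053, adjusted p = 5.94e-05) and ATF6 fell by 21.1% (-0.34, SE 0.054, adjusted p = 0.00133). This comparison and that of FDX2 loss at 20% O2 share the libraries of 20% O2 wo Doxy, so a high value there enters both with opposite sign.

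SDF2L1 rose 1.70-fold (log2 fold change 0.77, SE 0.131, adjusted p = 0.00203), from 12.5 to 14.5 CPM at 20% O2 to 21.8 to 26.1 CPM at 3% O2. With GC trends removed its change was 0.34 in the fit to 12 libraries (adjusted p = 0.107) and 0.34 in a fit to the 6 libraries without Doxy with the replicate block (adjusted p = 0.0208). EDEM1 rose by 14.8% (0.20, SE 0.056, adjusted p = 0.0246) and HSP90B1 rose by 14.8% (0.20, SE 0.054, adjusted p = 0.0210), while DNAJC3 fell by 15.6% (-0.25, SE 0.074, adjusted p = 0.0331). These 3 calls were fragile. EDEM1 lost its call without any single replicate of 20% O2 wo Doxy or without replicate 2 or 3 of 3% O2 wo Doxy (adjusted p between 0.0634 and 0.127), and DNAJC3 without any single replicate of 20% O2 wo Doxy or replicate 1 or 2 of 3% O2 wo Doxy (0.0697 to 0.126). HSP90B1 lost its call without any single replicate of 20% O2 wo Doxy, replicate 1 or 3 of 3% O2 wo Doxy, or replicate 2 of 3% O2 + Doxy (0.0543 to 0.134). With the replicate block over all 12 libraries, HSP90B1 and DNAJC3 did not pass (adjusted p = 0.0501 and 0.0645). With GC trends removed EDEM1 had 0.11 (adjusted p = 0.202). In the fit to 6 libraries with both the block and GC trends removed, EDEM1 had 0.11 (adjusted p = 0.0786) and DNAJC3 -0.12 (adjusted p = 0.121). HSPA5 had 736, 738 and 726 CPM at 20% O2 and 754, 678 and 670 CPM at 3% O2, which overlapped (log2 fold change -0.07, interval -0.17 to 0.04).

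A ratio of counts within a library does not depend on how libraries are scaled, so members were also set against HSPA5. Per 100 HSPA5 counts, XBP1 had 7.32 ± 0.119 counts in 20% O2 + Doxy, 13.99 ± 0.307 in 20% O2 wo Doxy, 7.36 ± 0.493 in 3% O2 + Doxy and 8.61 ± 0.808 in 3% O2 wo Doxy (mean ± SD, n = 3). HERPUD1 followed with 4.67 ± 0.0820, 8.51 ± 0.0420, 4.73 ± 0.231 and 6.09 ± 0.465. ERN1 had 2.13 ± 0.198, 5.38 ± 0.0713, 2.14 ± 0.0268 and 3.12 ± 0.307. In these 3 genes the 20% O2 wo Doxy ratios were above all others. The 3% O2 wo Doxy ratios were next, with 1 of them inside the XBP1 range of the libraries with Doxy. HSPA5, the divisor, itself fell on loss of FDX2 (log2 fold change -0.25 at 20% O2 and -0.36 at 3% O2), which raises every ratio without Doxy. In CPM none of these 3 genes was called on FDX2 loss at 3% O2, with XBP1 at -0.14 and HERPUD1 at 0.0038. DNAJB9 had 0.852 ± 0.0877, 1.68 ± 0.0972, 0.840 ± 0.0573 and 1.14 ± 0.0929, and ATF6 8.14 ± 0.552, 12.3 ± 0.256, 8.28 ± 0.254 and 10.2 ± 1.03. SDF2L1 had 3.12 ± 0.600, 1.87 ± 0.131, 2.62 ± 0.182 and 3.36 ± 0.475, lowest in 20% O2 wo Doxy. HSP90B1 kept close to HSPA5 on loss of FDX2 at 20% O2, with 101 ± 7.11 and 98.7 ± 1.75 counts per 100 of HSPA5, and had 108 ± 4.90 and 119 ± 5.24 at 3% O2.

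**Figure D3:**
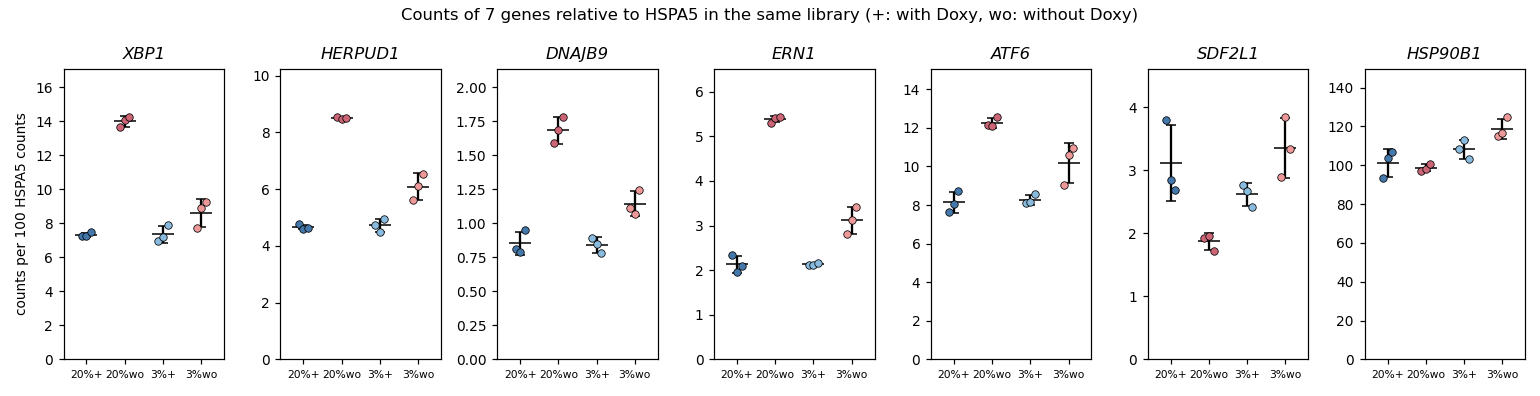
Counts of 7 genes per 100 HSPA5 counts of the same library (y axis, from 0) by condition (x axis); points are replicates, and bars are mean ± SD of 3. XBP1 stands at 13.7 to 14.2 in 20% O2 wo Doxy and at 6.97 to 9.24 in the other 9 libraries.

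The members with the most similar profiles over the 12 libraries were XBP1 and HERPUD1, with a root mean square distance of 0.0893 on the log2 CPM scale after each gene was centred on its own mean. EDEM1 and HSP90B1 followed at 0.0913, and the member nearest to HSPA5 was HSP90B1 at 0.118. SDF2L1 was farthest from any other member, 0.317 from HSP90B1. In a search of the 10764 tested genes that averaged 5 CPM or more, the profiles nearest to HSPA5 were those of PRICKLE1 (0.0526), CEMIP2 (0.0614), UTP14A (0.0622), DCAF1 (0.0624) and SP1 (0.0626), none of them a member, where the median distance to HSPA5 was 0.222. The profiles nearest to HERPUD1 were those of GTPBP2 (0.0562), SARS1 (0.0654), the cytosolic seryl-tRNA synthetase, WASHC2C (0.0686), OGT (0.0706), which attaches O-linked GlcNAc, and ZNF252P (0.0708). On loss of FDX2 at 20% O2, GTPBP2 had a log2 fold change of 0.66 and SARS1 of 0.53, beside 0.62 for HERPUD1. Those near HSPA5, at -0.25, had -0.34 (PRICKLE1), -0.12 (CEMIP2), -0.35 (UTP14A), -0.22 (DCAF1) and -0.28 (SP1). This is a description of 12 libraries that share 4 conditions.

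**Figure D4:**
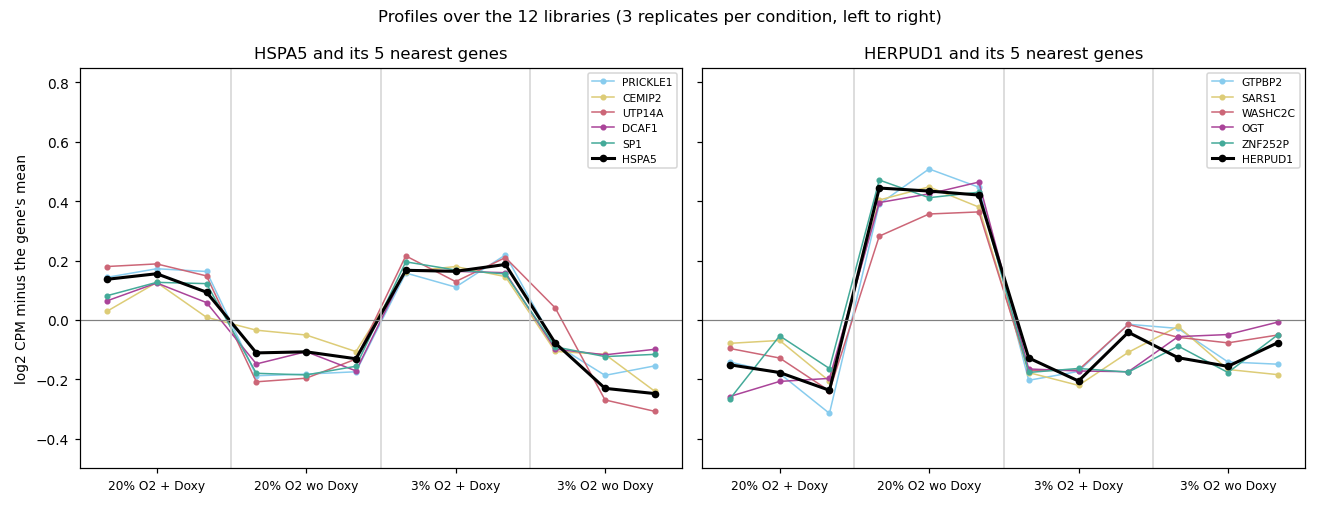
Log2 CPM minus each gene's own mean (y axis) in the 12 libraries (x axis, 3 per condition) for HSPA5 (left) and HERPUD1 (right), in black, and for the 5 genes nearest to each, in colour. The nearest genes lie within 0.0526 to 0.0626 (HSPA5) and 0.0562 to 0.0708 (HERPUD1) root mean square of the black line.

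Genes that share a promoter element did not share a direction. Of the 3 members with an ERSE, HSPA5 and HSP90B1 fell on loss of FDX2 at 20% O2 and XBP1 rose. Of the 2 with an ERSE-II, HERPUD1 rose and SDF2L1 fell. HERPUD1 is the only member whose window also holds the ATF4 element. ERN1, DNAJB9, XBP1 and ATF6 rose without that element in their windows, and its part in the rise of HERPUD1 was not tested. Among the 25 other tested genes with an ERSE or ERSE-II, 4 rose and 10 fell (median log2 fold change -0.03). Of all tested genes, 17.6% rose and 17.7% fell at 20% O2. Those with an ERSE included the chaperones CRELD2 (-0.55, adjusted p = 0.000919) and PDIA6 (-0.42, adjusted p = 5.08e-05), which fell, and ERO1B (0.61, adjusted p = 0.0148) and FICD (0.63, adjusted p = 0.0286), which rose. Of 328 other tested genes with the ATF4 element, 99 rose and 44 fell at 20% O2 (median 0.13). At 3% O2, 36 of them rose and 11 fell (median 0.05), where 4.2% of all tested genes rose and 3.11% fell. A match of letters is not evidence of binding, and binding was not measured.

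The wider pathway was followed through 7 lists of 113 other genes. For all tested genes, 17.6% rose and 17.7% fell on loss of FDX2 at 20% O2, and 4.2% rose and 3.11% fell at 3% O2. On loss of FDX2 at 20% O2, the 19 ER chaperones and folding enzymes largely moved with HSPA5: 13 fell, 3 rose and 3 did not pass (median log2 fold change -0.27). The largest falls were in TXNDC5 (-0.63), a disulfide isomerase that shares 60.6% of its exon bases with another gene, CRELD2 (-0.55) and HYOU1 (-0.47, SE 0.093, adjusted p = 0.00252), the nucleotide exchange factor of HSPA5. The 3 that rose were ERO1B (0.61), an oxidase for disulfide formation, FKBP14 (0.32) and the J-domain protein DNAJC10 (0.26). Leaving out 1 library ended the call of TXNDC5 (20% O2 + Doxy replicate 1, 20% O2 wo Doxy replicate 1 or 3; adjusted p at most 0.0922), ERO1B (20% O2 + Doxy replicate 1 or 2, 20% O2 wo Doxy replicate 3; at most 0.0905), FKBP14 (20% O2 + Doxy replicate 1, 20% O2 wo Doxy replicate 2 or 3; at most 0.0936) and DNAJC10 (these 2 conditions' replicate 1, 20% O2 wo Doxy replicate 2 or 3, 3% O2 + Doxy replicate 2; at most 0.176). At 3% O2 the median log2 fold change of all tested genes was 0.04. There, 0 of the 19 passed, with a median of -0.11, and 18 lay below 0 and 1 above. There were 10 at an unadjusted p under 0.05, where 23.1% of all tested genes passed. DESeq2 called 9, where it called 4.97% of genes higher and 6.54% lower.

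In ER-associated degradation, 19 of 20 listed genes were tested. At 20% O2, 14 of them did not pass, where 17.6% of all tested genes rose and 17.7% fell. VCP, the ATPase that extracts proteins from the ER membrane, fell from 606 to 338 CPM (log2 fold change -0.84, SE 0.068, adjusted p = 5.37e-06), and UBE2J1 (-0.26) and SELENOS (-0.26) fell as well. OS9 (0.27) and UBE2G2 (0.15) rose, and each lost its call without any single replicate of 20% O2 wo Doxy or without 20% O2 + Doxy replicate 2 or 3, and UBE2G2 also without 3% O2 wo Doxy replicate 2 or 3 (adjusted p at most 0.111 and 0.134). At 3% O2, VCP (-0.36, adjusted p = 0.0101) and UBE2J1 (-0.31, adjusted p = 0.0123) fell and 0 rose. UBE2J1 lost that call without replicate 2 of 3% O2 + Doxy or of 3% O2 wo Doxy (adjusted p at most 0.0615). Of 22 genes of ER entry and vesicle transport, 7 fell and 0 rose at 20% O2, led by the translocon-associated subunits SSR3 (-0.57) and SSR2 (-0.45) and by SEC61A1 (-0.33), the channel of the translocon. At 3% O2, SSR1 (-0.24), SEC24D (-0.23) and KDELR2 (-0.21) fell and 0 rose, and each of these 3 calls ended in 9 of the 12 omissions of a single library, among them every replicate of 3% O2 wo Doxy and replicates 1 and 2 of 3% O2 + Doxy (adjusted p at most 0.167).

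Of 11 tested sensors and regulators, 3 rose and 3 fell at 20% O2, where 17.6% of all tested genes rose and 17.7% fell. CREB3L1 (0.76) and CREB3 (0.43), relatives of ATF6 that are also cleaved at the Golgi, and FICD (0.63), which modifies HSPA5 with AMP, rose. CREB3L2 (-0.23), MBTPS1 (-0.21), the protease that cleaves ATF6, and RTCB (-0.17), the ligase that joins spliced XBP1 mRNA, fell. EIF2AK3 (PERK) had a log2 fold change of -0.02 (SE 0.062, adjusted p = 0.845). The calls of FICD, MBTPS1 and RTCB each ended when 1 library was left out: for FICD 20% O2 + Doxy replicate 2 or 3 or 20% O2 wo Doxy replicate 1 or 2 (adjusted p at most 0.0971), for MBTPS1 20% O2 + Doxy replicate 1 or 2, any of 20% O2 wo Doxy or 3% O2 wo Doxy replicate 3 (at most 0.107), and for RTCB 20% O2 wo Doxy replicate 1 (0.0639). At 3% O2, CREB3L1 (0.93) and CREB3 (0.37) rose and 0 fell. On the 6 libraries at 3% O2 alone neither was called (CREB3L1 0.91, adjusted p = 0.0562; CREB3 0.35, adjusted p = 0.0875). CREB3 also lost its call without 20% O2 wo Doxy replicate 2, 3% O2 + Doxy replicate 1 or 2, or any of 3% O2 wo Doxy (adjusted p at most 0.116).

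The list named PERK-ATF4 branch rose most. At 20% O2, 16 of its 18 genes rose and 0 fell (median log2 fold change 1.03). The name is a label for the list: PERK activity was not measured, and the part of PERK in the rise of these genes was not tested. EIF2AK3 (PERK) mRNA itself had a log2 fold change of -0.02 on loss of FDX2 at 20% O2. DDIT3 (CHOP) went from 7.96 to 44.8 CPM (2.49, SE 0.060, adjusted p = 1.49e-09), but 39.6% of its exon bases overlap other genes. NUPR1 (3.90) and ATF3 (2.29), stress-induced regulators, rose more than ATF4 itself (0.41, SE 0.091, adjusted p = 0.00491). At 3% O2, 5 rose, among them NUPR1 (1.93), the phosphatase subunit PPP1R15A (0.94) and DDIT3 (0.85), and 2 fell, VLDLR (-0.47) and PSAT1 (-0.33), so that the median was 0.11. On the 6 libraries at 3% O2 alone, NUPR1 (adjusted p = 0.105), PSAT1 (0.0629) and ATF4 (0.0780) lost their calls. Of the 18, 12 responded less at 3% than at 20% O2 in the direct test, where 4.08% of all tested genes were lower. ASNS (-2.13), NUPR1 (-1.97), CHAC1 (-1.90) and DDIT3 (-1.65) were among them. ASNS shares 44.6% of its exon bases with another gene. NUPR1 was at 0.236 CPM with Doxy, and its difference lost its call in 9 of 12 omissions of a single library, all but 3% O2 + Doxy replicates 1 and 3 and 3% O2 wo Doxy replicate 1 (adjusted p up to 0.326).

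Chaperones and proteases of other compartments were set beside HSPA5 and HSP90B1. The shares of all tested genes were 17.6% higher and 17.7% lower at 20% O2, and 4.2% higher and 3.11% lower at 3% O2. In the cytosol, 11 of 12 heat shock chaperones and regulators fell at 20% O2 and 0 rose (median log2 fold change -0.79). HSPA8 fell from 2958 to 1508 CPM (-0.97, SE 0.032, adjusted p = 1.83e-08), HSP90AB1 from 3966 to 2105 CPM (-0.91) and HSPA1A from 24.9 to 12.9 CPM (-0.94), the last of which has a near-identical copy in HSPA1B. At 3% O2, 6 of the 12 fell, HSPA8 by 0.39 on the log2 scale. In mitochondria, where FDX2 acts, 4 of 10 chaperones and proteases fell at 20% O2 and 0 rose: the chaperonins HSPD1 (-0.63) and HSPE1 (-0.59), the protease CLPP (-0.38) and the exchange factor GRPEL1 (-0.27), while the mitochondrial Hsp70 HSPA9 had -0.04 (SE 0.059, adjusted p = 0.634). HSPE1 lost its call without 20% O2 + Doxy replicate 2 or 3 or any single replicate of 20% O2 wo Doxy (adjusted p at most 0.119), and CLPP with GC trends removed (-0.15, adjusted p = 0.117). At 3% O2, HSPD1 (-0.28) and GRPEL1 (-0.20) fell. HSPD1 lost that call without 3% O2 + Doxy replicate 2 (adjusted p = 0.0722), neither was called on the 6 libraries at 3% O2 alone (0.0878 and 0.118), and GRPEL1 without 20% O2 wo Doxy replicate 1, 3% O2 + Doxy replicate 1 or 2 or 3% O2 wo Doxy replicate 2 or 3 (at most 0.105).

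The same lists were compared between 3% and 20% O2. Of all tested genes, 13.9% were higher and 11.9% lower without Doxy, and 1.63% were higher and 0.385% lower with Doxy. Without Doxy, 10 of 12 cytosolic heat shock chaperones and regulators were higher and 0 lower (HSPA8 0.70, SE 0.032), 9 of 19 ER chaperones were higher and 3 lower, and 11 of 18 genes of the PERK-ATF4 branch were lower and 2 higher. With Doxy, the cytosolic list had 1 higher (HSPA1A, 0.54) and 0 lower of 12, and the ER chaperones 1 higher (ERO1A, 0.38) and 0 lower of 19. Of the 18 genes of the PERK-ATF4 branch, 3 were higher (DDIT4 2.71, VLDLR 1.27 and STC2 0.66) and 0 lower. ATF4 (-0.17, adjusted p = 0.500) and DDIT3 (-0.02, adjusted p = 0.977) did not pass there, and the median of that list was -0.03. DDIT4 shares 41.2% of its exon bases with another gene. ERO1A lost its call when any of 7 single libraries was left out (20% O2 + Doxy replicates 1 and 2, all of 20% O2 wo Doxy, 3% O2 + Doxy replicates 1 and 2; adjusted p at most 0.149), and HSPA1A in 10 of 12 omissions, all but replicate 1 of 20% O2 + Doxy and of 3% O2 + Doxy (at most 0.197).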

How the data were processed

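Poly(A) RNA was sequenced on the DNBSEQ-T7 platform in paired-end mode. Per the submitters' processing notes, STAR, featureCounts, DESeq2 and GRCh38 were used, and the authors deposited raw counts per gene and library, not normalized or pooled. Versions of STAR and featureCounts, the strand setting and the handling of reads with several alignments are not given in the sources used here, so genes with overlapping exons are uncertain. The 58735 identifiers match GENCODE release 29 (GRCh38), which gave symbols and positions.

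Tests used edgeR 4.0.16 (R 4.3.3). Its filterByExpr (minimum count 10, minimum total 15) kept 16891 of 32966 genes with a count, TMM scaled the libraries, and quasi-likelihood fits used all 12 libraries with a mean for each of the 4 conditions (8 residual degrees of freedom, biological coefficient of variation 16.3%). A gene was called at a Benjamini-Hochberg adjusted p under 0.05 over all tested genes. P-values rest on the spread between the 3 replicates within conditions, pooled over the 4 conditions and moderated across genes. That spread was unequal. The median chi-square per degree of freedom between replicates was 1.32 in 20% O2 wo Doxy and 4.54 in 20% O2 + Doxy. At 3% O2 it was 3.98 with Doxy and 3.30 without. The tight replicates of 20% O2 wo Doxy thus also lower the pooled spread in comparisons that do not include them, such as FDX2 loss at 3% O2. Errors are standard errors for log2 fold changes and SDs for levels. Totals of 24958386 to 34313637 counts make counting error small for most members. It is larger for the lowest, DNAJB9, which had 183 counts in a library. NUPR1, at under 1 CPM in 3 of the conditions, is limited by depth.

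The members, the 7 lists and the tests were chosen with earlier results of these data known. Of each list, ATF4, DDIT3, EIF2AK3, HSPA8, HSPA9, HYOU1 and the 3 largest called changes in each direction were eligible to be named; PDIA6 at 20% O2 and GRPEL1 at 20% O2 were named after their values were seen. For HSPA5 and HERPUD1 the 5 nearest profiles were named. Alternatives were DESeq2's size factors, no filter, at least 10 counts in every library, the replicate number as a factor, the compared libraries alone, each library left out, DESeq2's Wald test (version 1.42.0), an adjusted p under 0.01 and, added after seeing the data, removal of each library's trend on transcript GC content (lowess, span 0.3) as an offset. That trend was fitted to each library's deviation from the gene's mean over all libraries of the fit, not over its condition. Its removal therefore also takes out GC-linked differences between conditions, whatever their source. Deviations of same-numbered replicates from their condition means were correlated over 10790 genes. Between 20% and 3% O2 without Doxy all 3 pairs had 0.250 to 0.409, and differently numbered pairs of these conditions -0.473 to 0.0962. The replicate block is given for that comparison for this reason, though the labels do not state that libraries were paired. Elsewhere same-numbered pairs did not all pass a correlation of 0.1. Scripts were tested on simulated counts.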

Additional observations from a re-analysis of the deposited data

Results flagged for a closer look

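The response to FDX2 loss differed between 3% and 20% O2 in a direct test (edgeR's quasi-likelihood test of the difference, Benjamini-Hochberg adjusted p under 0.05) for 6 of the 10 members, where 3.21% of all tested genes were higher and 4.08% lower. Values are the log2 response at 3% minus that at 20% O2: ERN1 -0.91, XBP1 -0.83, DNAJB9 -0.65, HERPUD1 -0.62, ATF6 -0.41 and SDF2L1 0.98. For SDF2L1, whose transcripts have a GC content of 66.2%, the difference was 0.47 with GC trends removed and did not pass. That removal also takes out GC-linked differences between conditions. DNAJB9 lost its call without 20% O2 wo Doxy replicate 3 (adjusted p = 0.0573).

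Among genes of the other lists, the response was smaller at 3% O2 for ASNS (-2.13), NUPR1 (-1.97), CHAC1 (-1.90) and DDIT3 (-1.65), which had risen at 20% O2. For genes that had fallen at 20% O2 the same test gave CRELD2 0.51, PDIA6 0.28, VCP 0.49, SSR3 0.37, SSR2 0.34, HSP90AB1 0.65, HSPA8 0.58, HSP90AA1 0.49 and HSPD1 0.35. With GC trends removed CRELD2 had 0.21 and did not pass (adjusted p = 0.232). The differences of CRELD2, PDIA6, SSR3, SSR2, HSPD1 and NUPR1 each lost their call in at least 2 of the 12 omissions of a single library, SSR2 in 2 (20% O2 wo Doxy replicates 1 and 3), HSPD1 in 5, CRELD2, PDIA6 and SSR3 in 8 and NUPR1 in 9, with adjusted p up to 0.326.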

How the results depend on the processing

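Of 990 alternatives for the members' log2 fold changes, 899 kept direction and call, 41 lost a call, 18 gained one and 32 reversed, the last all in results that had not passed. Of 50 results 27 kept direction and call throughout. Members called at 20% O2 on FDX2 loss numbered 8 (8 to 9 under all alternatives) and between oxygen levels without Doxy 9 (6 to 9). On FDX2 loss at 3% O2 the 2 calls became 1 at an adjusted p under 0.01, without the filter or with the replicate block over 12 libraries, 0 on the compared libraries with or without the replicate block, 5 with DESeq2, 4 with GC correction and 1 to 4 when a library was left out. The share of all tested genes called moved as well, from 7.31% to 0.00625% and 1.36% on the compared libraries with and without the block, 11.5% with DESeq2 and 18.1% with GC correction. With Doxy, 0 calls between oxygen levels became 1 with DESeq2 or GC correction, where the share over all genes went from 2.02% to 3.72% and 7.07%, and the 6 differences became 3 at an adjusted p under 0.01.

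Only between 20% and 3% O2 without Doxy did all 3 same-numbered pairs have deviations correlated above 0.1. The labels do not state a pairing, and the part of GC trends in these correlations was not tested. There, the replicate block on the compared libraries left 9 members called, 3 higher and 6 lower; elsewhere the number is shared only as a label.

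Reversals concerned values near 0. DNAJC3 on FDX2 loss at 20% O2 (-0.0031) became 0.0068 with at least 10 counts in every library, 0.0041 and 0.0011 on the compared libraries with and without the replicate block, and -0.084 to 0.037 with a library left out; EIF2AK3 ran from -0.062 to 0.019 there. At 3% O2, HERPUD1 (0.0038) became -0.016 with DESeq2's size factors and with DESeq2, -0.029 without the filter, -0.0079 with 10 counts, -0.021 and -0.022 on the compared libraries with and without the block, and -0.048 to 0.046 with a library left out. SDF2L1 (-0.0031) became 0.00074 with the block over 12 libraries and -0.088 to 0.043 with a library left out. For 3% against 20% O2 with Doxy, DNAJC3 (-0.0040) became 0.062 with GC correction, and leaving out a library gave DNAJC3 -0.082 to 0.049, DNAJB9 -0.020 to 0.091, XBP1 -0.011 to 0.094, HYOU1 -0.034 to 0.14 and DDIT3 -0.047 to 0.022. Without Doxy, EIF2AK3 (0.011) became -0.0065 with size factors, -0.00098 without the filter, -0.014 with 10 counts, -0.0024 and -0.0017 on the compared libraries with and without the block, -0.0058 with DESeq2, and -0.023 to 0.051 with a library left out. For the difference, ATF4 (0.11) became -0.0017 with GC correction and EDEM1 -0.065 to 0.023 with a library left out. The cause was not tested.

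Counts of called genes in the 7 lists moved past 1.5 times in 196 of 728 alternatives. Each is given as its count, then its lowest and highest over all alternatives and, after a comma, over single omitted libraries. On FDX2 loss at 20% O2 they were 16 (7 to 18, 9 to 18) for ER chaperones, 5 (3 to 10, 3 to 8) for ER-associated degradation, 7 (6 to 9, 7 to 8) for ER entry, 6 (3 to 7, 3 to 6) for sensors, 16 (15 to 17, 15 to 17) for the PERK-ATF4 branch, 11 (11 to 12, 11 to 11) for the cytosolic and 4 (2 to 5, 3 to 5) for the mitochondrial list. At 3% O2, in the same order, they were 0 (0 to 9, 0 to 5), 2 (0 to 5, 1 to 5), 3 (0 to 8, 0 to 6), 2 (0 to 4, 1 to 2), 7 (0 to 8, 6 to 7), 6 (0 to 11, 2 to 8) and 2 (0 to 3, 0 to 3). Between oxygen levels with Doxy they were 1 (0 to 3, 0 to 1), 0 (0 to 1, 0 to 0), 0 (0 to 1, 0 to 0), 0 (0 to 3, 0 to 0), 3 (1 to 4, 3 to 3), 1 (0 to 5, 0 to 1) and 0 (0 to 1, 0 to 0), and without Doxy 12 (8 to 13, 9 to 13), 4 (2 to 8, 2 to 7), 7 (2 to 8, 2 to 8), 2 (1 to 6, 1 to 4), 13 (11 to 17, 11 to 14), 10 (9 to 11, 9 to 10) and 2 (1 to 3, 1 to 3). For the difference they were 2 (0 to 6, 0 to 5), 1 (0 to 6, 1 to 2), 2 (0 to 3, 0 to 2), 0 (0 to 2, 0 to 1), 12 (11 to 16, 11 to 13), 6 (4 to 8, 4 to 8) and 1 (0 to 2, 0 to 1). For 115 results of named list genes, 1985 of 2296 alternatives kept direction and call, 281 lost a call, 14 gained one and 16 reversed.

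Limits are few replicates per condition, unequal spread between conditions, Doxy changed together with FDX2, and a longer culture at 3% O2. Others are GC trends in some libraries, and gene counts that do not tell spliced from unspliced XBP1. FDX2 counts were too low to check its loss.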
